A study of Homo sapiens with 15 samples.

Results

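The genes described here are 3 membrane-anchored serine proteases, TMPRSS2, HPN (hepsin) and ST14 (matriptase), and 2 Kunitz-type inhibitors of such enzymes, SPINT1 and SPINT2. They were chosen by symbol, and all 5 had a row among the 17272 genes of the LNCaP expression table. LNCaP is a human prostate cancer line that responds to androgen. Its cells were kept without androgen for 2 days, in medium with 10% charcoal-stripped serum. Treatment then lasted 22 h. It was 1 nM of the synthetic androgen R1881 and the vehicle DMSO for 10 libraries, called R1881. For the other 5 libraries, called R1881 + enzalutamide, it was 1 nM R1881 and 2 µM enzalutamide, an antiandrogen drug. Every library thus came from androgen-treated cells of a single line, and no library of cells without androgen was part of the comparison. The methods text assigns the group sizes the other way round, and the sample labels were followed.

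Type II transmembrane serine proteases are anchored in the cell membrane by a segment near their amino terminus and carry the catalytic domain outside the cell, where they cleave growth factor precursors, receptors and the precursors of other proteases. They are made as inactive precursors, and once active they are held in check by SPINT1 (HAI-1) and SPINT2 (HAI-2), membrane proteins whose Kunitz domains block the active site. In the prostate, TMPRSS2 is known as an androgen-induced gene whose regulatory region drives ETS oncogenes in gene fusions, HPN is known for high levels in prostate cancer, and ST14 and SPINT1 form an enzyme and inhibitor pair of the epithelial surface.

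In GRCh38, TMPRSS2 takes up positions 41464300 to 41531116 of chromosome 21, is read from the minus strand and has 14 exons in its canonical transcript (GENCODE v44). HPN lies on chromosome 19 from 35040506 to 35066573 (13 exons), ST14 on chromosome 11 from 130159782 to 130210362 (19 exons), SPINT1 on chromosome 15 from 40844018 to 40858207 (11 exons) and SPINT2 on chromosome 19 from 38244035 to 38292615 (7 exons), all on the plus strand. The annotation places MX1 on the opposite strand across the 3′ end of TMPRSS2, and antisense or overlapping genes at HPN, SPINT1 and SPINT2 as well. The libraries were made with a stranded kit, but no source used here gives the strand setting of the counting, so reads of such pairs may not have been told apart. MX1 itself was measured at a mean of 2.18 CPM in the R1881 libraries and 3.75 CPM in those with enzalutamide. CPM here is the deposited scale of the read counts, named so in the methods, and its exact scaling is not given.

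Because the drug blocks the androgen response, the genome around the start of each gene was searched for the androgen response element, AGAACA and TGTTCT with 3 unspecified bases between them, within 50 kb on either side. The motif is palindromic and reads the same on both strands. No exact match was found near any of the 5 genes, and exact matches were present for 1.9% of the 14501 genes searched. With 1 mismatch allowed in the 12 fixed letters, 34.9% of the genes had a match, and among the 5 only SPINT2 did. This match is shown because it was the single one found, with capitals marking the letters equal to the motif, on the plus strand at chr19:38250713-38250737.

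SPINT2 match: cattcAGcACActtTGTTCTgattc

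Its centre lies at -13.8 kb from the canonical start (upstream), inside the annotated bounds of SPINT2 and outside every annotated exon. A match describes letters only, and the absence of a match near TMPRSS2 says only that these letters are not in this window.

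The reads assigned to genes numbered 15830745 to 25416052 a library, and each of the 5 genes had at least 914 reads in every library. Treatments were compared with limma on log2(CPM + 0.5) over 17046 genes, so fold changes are on that scale. KLK2, KLK3 and FKBP5, known androgen targets, fell with enzalutamide, with log2 fold changes of -4.87, -3.55 and -4.99. All 8 luminal prostate markers examined were measured, 4 of them lower and 4 higher with enzalutamide (adjusted p under 0.05 from limma). Over all genes tested 32.7% were lower and 29.8% higher. Of the basal markers only KRT14 had a row (at most 1.44 CPM). Of 7 leukocyte, endothelial and fibroblast markers 3 had a row, and their summed level was 8.80 to 13.1 CPM with R1881 but 22.6 to 28.4 CPM with R1881 + enzalutamide, with COL3A1 at a mean of 1.84 and 11.96 CPM. The part of these markers in the results was not tested. Fewer cells of a type and less RNA per cell cannot be told apart in bulk RNA. In the labels the libraries carry numbers, 51 to 55 and 71 to 75 for R1881 and 81 to 85 for R1881 + enzalutamide. Neither the meaning of these series of numbers nor their order is stated, and the series and the treatment cannot be told apart.

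With enzalutamide, TMPRSS2 fell about 11.9-fold and ST14 about 1.40-fold, SPINT2 rose by 9.89%, and HPN and SPINT1 did not pass the test. Thus 3 of the 5 genes differed between treatments at an adjusted p under 0.05 from limma, where 62.5% of all genes tested did, 32.7% lower and 29.8% higher. Of these calls over all genes 52.3% were lower, and 39.2% were lower with the library totals set equal. The number of the 5 genes called is therefore close to the background, and they differed from each other in the size of the change. A change of at least 2-fold that passed the test, as TMPRSS2 showed, was found downward for 4.19% of genes and upward for 3.26%.

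**Figure D1:**
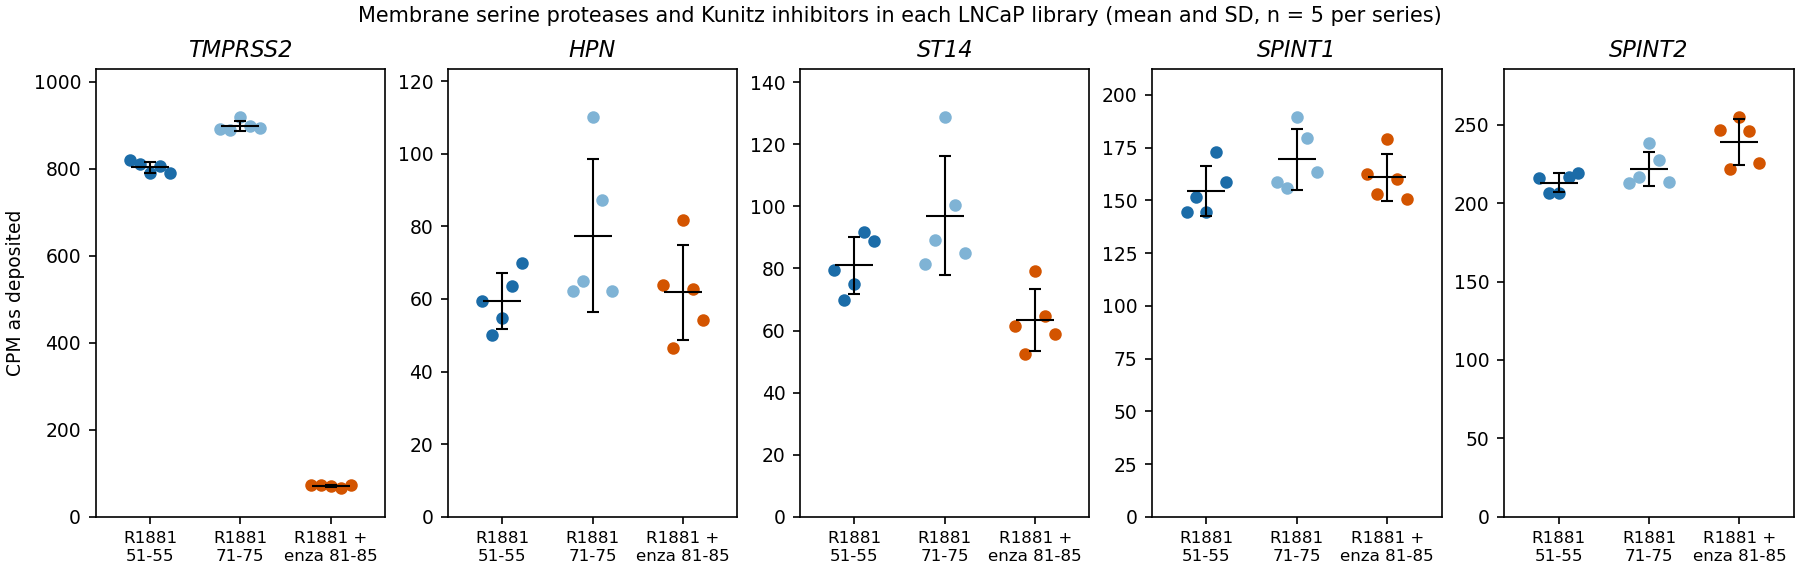
CPM as deposited of the 5 genes (y axes start at 0) in each library, by series of library numbers (x axis), with the mean and SD over 5 libraries as black bars. TMPRSS2 sits between 790 and 918 CPM with R1881 but between 67.2 and 73.6 CPM with R1881 + enzalutamide, and the other genes have overlapping ranges.

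TMPRSS2, which can cleave the receptor PAR2 and viral spike proteins, had 790 CPM in the lowest R1881 library, a median of 854 CPM and 918 CPM in the highest. The R1881 + enzalutamide libraries 81 to 85 had 72.8, 73.6, 70.7, 67.2 and 73.0 CPM. All R1881 + enzalutamide libraries thus lay far below all R1881 libraries, and 20.1% of the genes tested had ranges that lay apart in this direction (17.1% upward and 37.2% in all). TMPRSS2 averaged 850 ± 51.2 CPM over the R1881 libraries (SD, n = 10) against 71.5 ± 2.61 CPM over those with enzalutamide (SD, n = 5), where the mean decreased by 91.6%. The log2 fold change was -3.56 (standard error, SE, 0.041, adjusted p = 6.59e-24 from limma), with an exact permutation p of 0.000333 over all 3003 regroupings of the libraries (two-sided), the smallest this design allows. By log2 fold change TMPRSS2 ranked 34 from the lowest of the 17046 genes. By mean level it ranked 128 with R1881 and 3217 with R1881 + enzalutamide.

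The level of TMPRSS2 also differed between the series of R1881 libraries. It was 803 ± 12.7 CPM in libraries 51 to 55 and 898 ± 11.9 CPM in libraries 71 to 75 (SD, n = 5 each), a log2 difference of 0.16 (SE 0.030, adjusted p = 0.0117 from limma). The ranges of the series did not overlap, and how many of all genes had series ranges apart was not counted. By limma at an adjusted p under 0.05, 3.71% of all genes tested differed between these series, 0.945% being higher in 71 to 75. None of the other 4 genes passed this test (adjusted p of at least 0.170 from limma). Against libraries 51 to 55 alone the log2 fold change of TMPRSS2 with enzalutamide was -3.48, and against libraries 71 to 75 alone it was -3.64.

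HPN, a protease that can activate the precursors of hepatocyte growth factor and of urokinase, had 50.1 CPM in the lowest R1881 library, a median of 62.9 CPM and 110 CPM in the highest. With R1881 + enzalutamide the libraries 81 to 85 had 63.9, 46.5, 81.7, 62.6 and 54.3 CPM. These values lay within or just below the R1881 range. The mean of 68.4 ± 17.7 CPM (SD, n = 10) stood against 61.8 ± 13.1 CPM (SD, n = 5), a log2 difference of -0.14 with a 95% interval from -0.44 to 0.16 (adjusted p = 0.429 from limma). Leaving out a single library moved the difference to between -0.24 (without library 83) and -0.04 (without library 82), and it was -0.06 without library 73 and -0.09 without library 74, with no call in any case. HPN was the most variable of the 5 genes between libraries of the same treatment, with a coefficient of variation of 25.8% with R1881 and 21.3% with R1881 + enzalutamide. For TMPRSS2 these coefficients were 6.02% and 3.65%.

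ST14, a protease that activates hepatocyte growth factor and prostasin, was measured at 69.9 CPM in the lowest R1881 library, with a median of 87.0 CPM and 129 CPM in the highest. The R1881 + enzalutamide libraries 81 to 85 had 61.5, 52.5, 79.2, 64.8 and 58.8 CPM. Of these 5 libraries only library 83 reached into the R1881 range. The mean of ST14 fell from 89.0 ± 16.5 CPM (SD, n = 10) to a mean of 63.3 ± 9.93 CPM (SD, n = 5), with a log2 fold change of -0.48 (SE 0.108, adjusted p = 0.0006 from limma). The exact permutation p was 0.00133 (two-sided). The log2 fold change was -0.36 against libraries 51 to 55 alone and -0.60 against libraries 71 to 75 alone.

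SPINT1, which inhibits matriptase and hepsin, had 145 CPM in the lowest R1881 library, a median of 159 CPM and 189 CPM in the highest, and 163, 153, 179, 160 and 150.5 CPM in libraries 81 to 85. The R1881 + enzalutamide values all fell inside the R1881 range. Its log2 difference was -0.01 with a 95% interval from -0.13 to 0.12 (adjusted p = 0.944 from limma), and its sign changed with several scalings and with the GC trend removed. SPINT2, which has a broader range of protease targets, had 207 CPM in the lowest R1881 library, a median of 216 CPM and 238 CPM in the highest. In libraries 81 to 85 it had 247, 222, 255, 246 and 225 CPM, so that 3 of 5 lay above every R1881 library. SPINT2 rose from 217 ± 9.45 CPM over the R1881 libraries (SD, n = 10) to 239 ± 14.5 CPM (SD, n = 5), a log2 fold change of 0.13 (SE 0.039, adjusted p = 0.00478 from limma). Against libraries 71 to 75 alone the log2 fold change was 0.11 and did not pass the threshold (adjusted p = 0.0653 from limma).

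**Figure D2:**
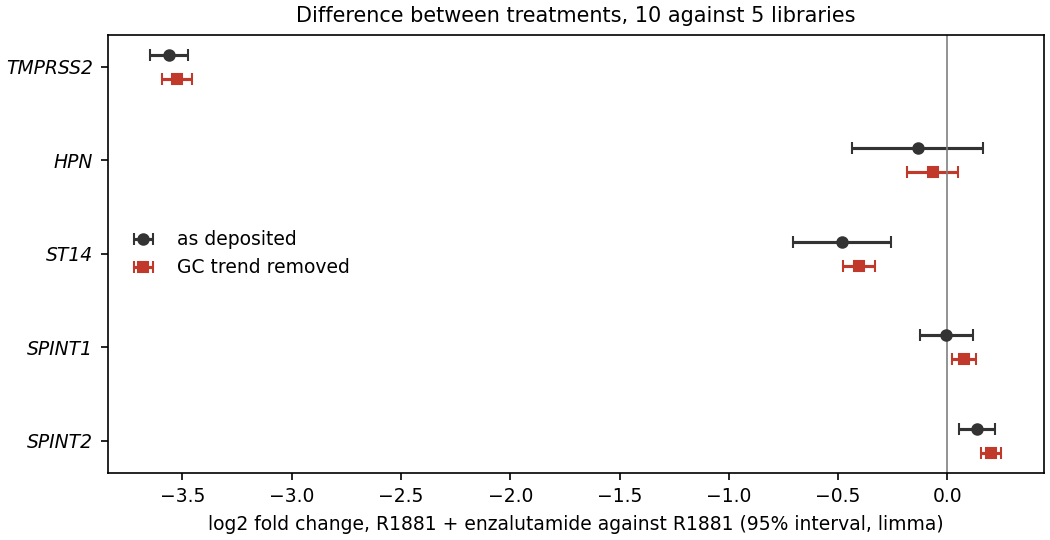
Log2 fold change of R1881 + enzalutamide against R1881 (x axis) with its 95% interval from limma for the 5 genes (rows), on the deposited values (circles) and with the trend on GC content removed (squares). The intervals of all 5 genes became shorter with the trend removed, and TMPRSS2 stayed near -3.5.

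The spread of HPN, ST14, SPINT1 and SPINT2 between libraries went along with the GC content of transcripts. The GC content of the canonical transcript was 63.7% for HPN, 62.1% for ST14, 60.2% for SPINT1, 55.3% for SPINT2 and 51.8% for TMPRSS2, where the median of the genes tested was 47.8%. In each library the deviation of all genes from their treatment mean was fitted on GC content. The slope was highest in libraries 73, 83 and 74, at 0.220, 0.146 and 0.121 (log2 per 10 percentage points), and lowest in libraries 52, 53 and 82, at -0.129, -0.099 and -0.095. Libraries 73, 83 and 74 had the highest deviations of HPN, at 0.72, 0.43 and 0.38 on the log2 scale, and libraries 52, 82 and 53 the lowest, at -0.41, -0.38 and -0.28. In the same libraries 73, 83 and 74 ST14 deviated by 0.55, 0.33 and 0.19 and SPINT1 by 0.23, 0.15 and 0.15, the highest of each. SPINT2 was also highest in libraries 73, 83 and 74, at 0.13, 0.09 and 0.07, and lowest in library 82, at -0.11. The deviations of TMPRSS2 stayed between -0.10 and 0.11.

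**Figure D3:**
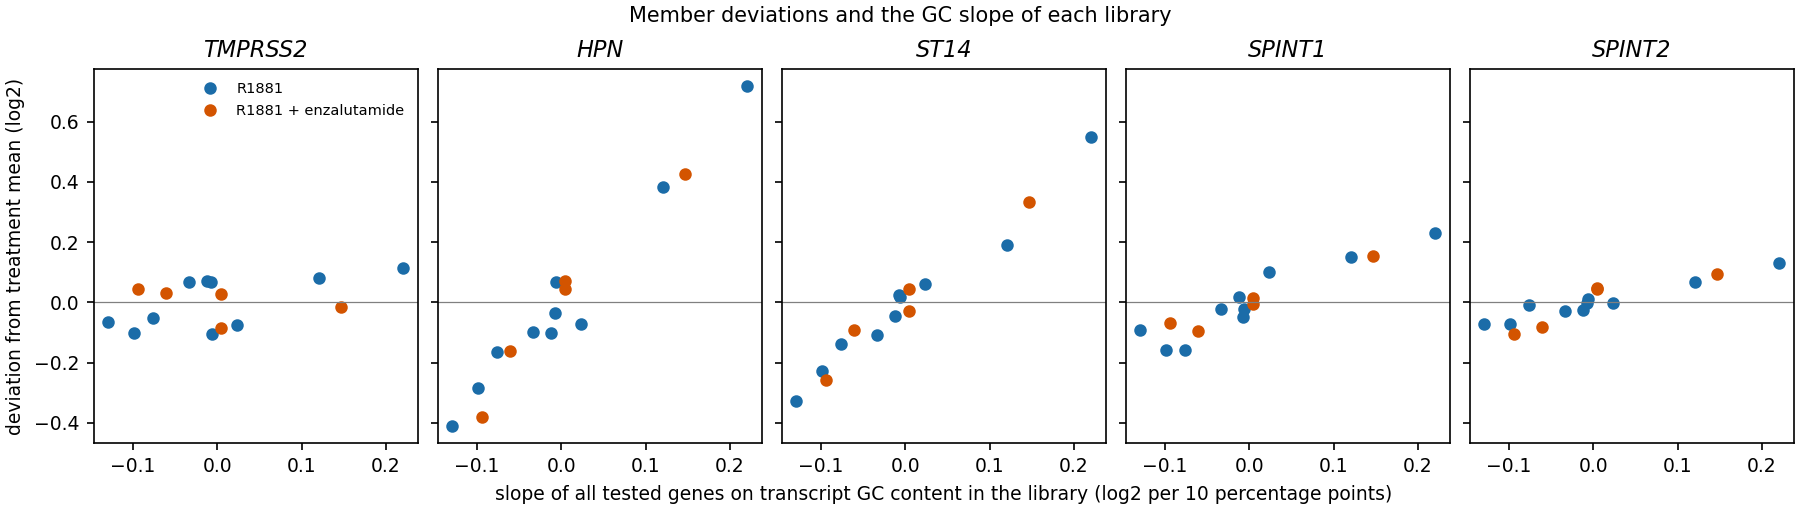
Deviation of each gene from its treatment mean (log2, y axis) against the slope of all tested genes on transcript GC content in that library (log2 per 10 percentage points, x axis), with 1 point per library (10 R1881 in blue, 5 R1881 + enzalutamide in orange). HPN and ST14 rise along the slope up to 0.72 and 0.55 in library 73, while TMPRSS2 stays within 0.11 of its mean.

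The GC trend of each library was then taken out. On the log2 scale the SD of HPN among R1881 libraries was then 0.13 in place of 0.33. That of ST14 was 0.08 in place of 0.24, of SPINT1 0.05 in place of 0.13 and of SPINT2 0.03 in place of 0.06. This setting was chosen after the data were seen, and it also takes out any trend on GC content that the treatment itself may have caused. The log2 fold change of ST14 was then -0.41 (SE 0.036, adjusted p = 1.98e-10 from limma), and no R1881 + enzalutamide library lay within the R1881 range. HPN remained without a call at -0.07, with a 95% interval from -0.18 to 0.05 (adjusted p = 0.284 from limma). SPINT2 was higher by 0.20 (adjusted p = 2.22e-08 from limma) and SPINT1 by 0.07 (adjusted p = 0.0144 from limma). In this setting 73.0% of the 14501 tested genes with a GC content were called, 35.6% lower and 37.4% higher. The 62.5% given above for the deposited values was over 17046 genes. The ranges of the treatments also lay apart for TMPRSS2 and SPINT2 but overlapped for HPN and SPINT1. How many of all genes had ranges apart was not counted in this setting. Without libraries 73, 74 and 83, and with no trend removed, ST14 had -0.47, SPINT2 0.14, HPN -0.10 and SPINT1 0.00, of which ST14 and SPINT2 passed the test.

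Levels of different genes were compared as CPM per kb of canonical transcript. With R1881 the order was TMPRSS2 at 246 ± 14.8, SPINT2 at 129 ± 5.60, SPINT1 at 54.4 ± 4.94, HPN at 39.2 ± 10.1 and ST14 at 26.9 ± 4.98 CPM per kb (SD, n = 10). TMPRSS2 was the highest of the 5 in 10 of 10 R1881 libraries. With R1881 + enzalutamide SPINT2 was the highest at 142 ± 8.57 CPM per kb (SD, n = 5), in 5 of 5 libraries, followed by SPINT1 at 54.1 ± 3.74, HPN at 35.4 ± 7.53, TMPRSS2 at 20.7 ± 0.757 and ST14 at 19.2 ± 3.01 CPM per kb. TMPRSS2 lay above ST14 in 3 of these 5 libraries, so that the order of these neighbours did not exceed their spread, while HPN lay above TMPRSS2 in all 5.

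The makeup of the protease transcripts was compared within each library. Of the length-scaled signal of the 6 type II transmembrane serine proteases with a row, TMPRSS2 held 78.3% ± 2.97 in the R1881 libraries (SD, n = 10) but 26.6% ± 3.89 in those with enzalutamide (SD, n = 5). HPN held 12.3% ± 2.10 and 44.4% ± 3.64, and ST14 held 8.49% ± 0.924 and 24.2% ± 0.764. TMPRSS6, TMPRSS11E and TMPRSS13 together held 0.933% ± 0.112 and 4.77% ± 0.385. For each of these shares the ranges of the treatments lay apart. Shares add up to a fixed total, so those of HPN and ST14 were higher with the fall of TMPRSS2, while the levels per kb of HPN and ST14 given above were not higher with enzalutamide. The summed signal of the proteases was 316 ± 26.9 CPM per kb with R1881 and 79.0 ± 10.4 CPM per kb with R1881 + enzalutamide, and that of SPINT1 and SPINT2 ran from 171 to 205 and from 183 to 211 CPM per kb. The signal of the inhibitors was thus 0.582 ± 0.0256 times that of the proteases with R1881 and 2.49 ± 0.182 times with R1881 + enzalutamide. Relative to HPN and ST14 alone, without TMPRSS2, the signal of the inhibitors was 2.85 ± 0.403 times with R1881 and 3.66 ± 0.470 times with R1881 + enzalutamide, and these ranges overlapped (2.01 to 3.48 and 2.98 to 4.30). These are transcript levels, and neither protein nor protease activity was measured.

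**Figure D4:**
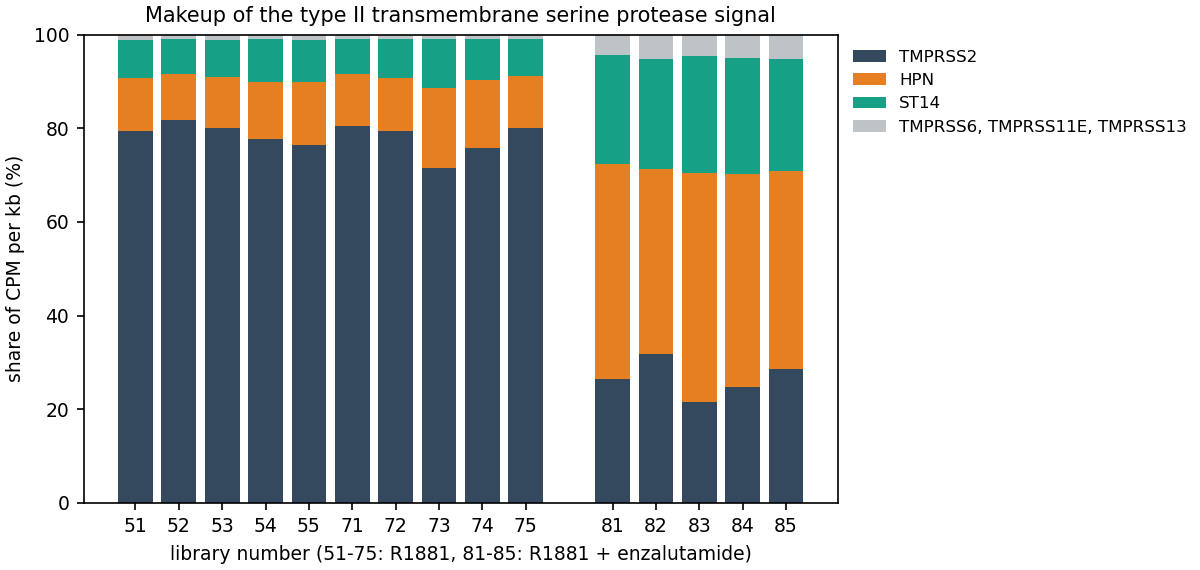
Share of each protease in the summed CPM per kb of the type II transmembrane serine proteases (%, y axis from 0) in each library (x axis, by library number). TMPRSS2 holds 71.6% to 81.7% in the 10 R1881 libraries and 21.5% to 31.7% in the 5 R1881 + enzalutamide libraries, where HPN holds the largest share.

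For each pair of a protease and an inhibitor the log2 ratio of CPM was computed per library, a measure in which scaling cancels. For ST14 to SPINT1 it averaged -0.88 ± 0.144 over the R1881 libraries (SD, n = 10) against -1.36 ± 0.135 over those with enzalutamide (SD, n = 5), 1.39-fold lower, and the ranges did not overlap. Relative to SPINT2, ST14 was 1.54-fold lower, again with no overlap. HPN to SPINT1 differed by -0.13 and HPN to SPINT2 by -0.27, with ranges that overlapped in both cases. For HPN to SPINT1 the difference was -0.20 without library 83, -0.05 without library 82 and -0.08 without library 73. TMPRSS2 was 11.8-fold lower relative to SPINT1 and 13.1-fold lower relative to SPINT2. The intervals of library values for TMPRSS2 to SPINT1 ran from 2.22 to 2.51 with R1881 and from -1.34 to -1.04 with R1881 + enzalutamide.

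Of 54 further genes in lists of related proteases, inhibitors and substrates written by hand, 18 were tested. With enzalutamide 7 of them fell and 8 rose (adjusted p under 0.05, limma), beside 32.7% lower and 29.8% higher over all genes tested. Their median log2 fold change was 0.12, beside -0.01 over all genes tested. The members without a row were not analysed here.

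Among the other type II transmembrane serine proteases 3 of 14 were tested, and all of them were expressed at a low level. TMPRSS13 rose from a mean of 3.45 ± 0.505 CPM (SD, n = 10) to one of 7.14 ± 0.928 CPM (SD, n = 5), with a log2 fold change of 0.96 (adjusted p = 3.50e-08 from limma). TMPRSS6 (matriptase-2), a regulator of iron uptake through hepcidin, rose by 0.66 and TMPRSS11E fell by 0.68 on the log2 scale. These counts rest on few reads, from 14 to 187 per library. The ranges lay apart for TMPRSS13 and TMPRSS11E and overlapped for TMPRSS6. PRSS8 (prostasin), a membrane-anchored substrate of matriptase, had 56.6 ± 14.5 CPM in the R1881 libraries and 65.0 ± 12.3 CPM in the others (log2 difference 0.21, adjusted p = 0.189 from limma). With the GC trend removed its difference was 0.29 (adjusted p = 0.000117 from limma).

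Of the other genes for proteins with a Kunitz domain 4 were tested, and 2 of them fell, where 32.7% of all genes were lower. APP, the amyloid precursor protein, went down from 806 ± 19.5 CPM over the R1881 libraries (SD, n = 10) to 569 ± 15.03 CPM over the others (SD, n = 5), a log2 fold change of -0.50. APLP2, its relative and a neighbour of ST14 on chromosome 11, fell by 0.43 on the log2 scale, and both had ranges that lay apart. TFPI, the tissue factor pathway inhibitor, and COL7A1 had log2 differences of 0.11 and 0.04 and did not pass the test, though TFPI did with the GC trend removed (0.063, adjusted p = 0.0446 from limma). SERPINE2, a serpin that inhibits thrombin and prostasin, fell from 13.2 ± 1.76 CPM to 7.02 ± 0.661 CPM, with a log2 fold change of -0.85 (adjusted p = 3.38e-08 from limma).

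In the list of substrates and their receptors 3 genes were lower and 6 were higher of 9 tested, where 62.5% of all genes were called in either direction. F2RL1, which encodes PAR2, a receptor activated by cleavage by membrane serine proteases, went down from 75.5 ± 4.22 CPM in the R1881 libraries (SD, n = 10) to 35.9 ± 3.51 CPM in those with enzalutamide (SD, n = 5). This is a log2 fold change of -1.06 (SE 0.053, adjusted p = 2.98e-13 from limma), with 66.3 CPM or more in every R1881 library and 40.6 CPM or less in every other. MET, the receptor of hepatocyte growth factor, rose from 0.278 ± 0.121 CPM to 1.68 ± 0.294 CPM, with a log2 fold change of 1.49 (adjusted p = 2.08e-09 from limma) that rests on 1 to 9 reads per R1881 library. HGF itself was not analysed here. CDCP1, a surface protein cleaved by matriptase, fell by 0.46 on the log2 scale. MST1, which encodes macrophage-stimulating protein, rose by 0.64, SCNN1A, a subunit of the epithelial sodium channel, by 0.21, and EPCAM and LAMA3 by 0.13 each.

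**Figure D5:**
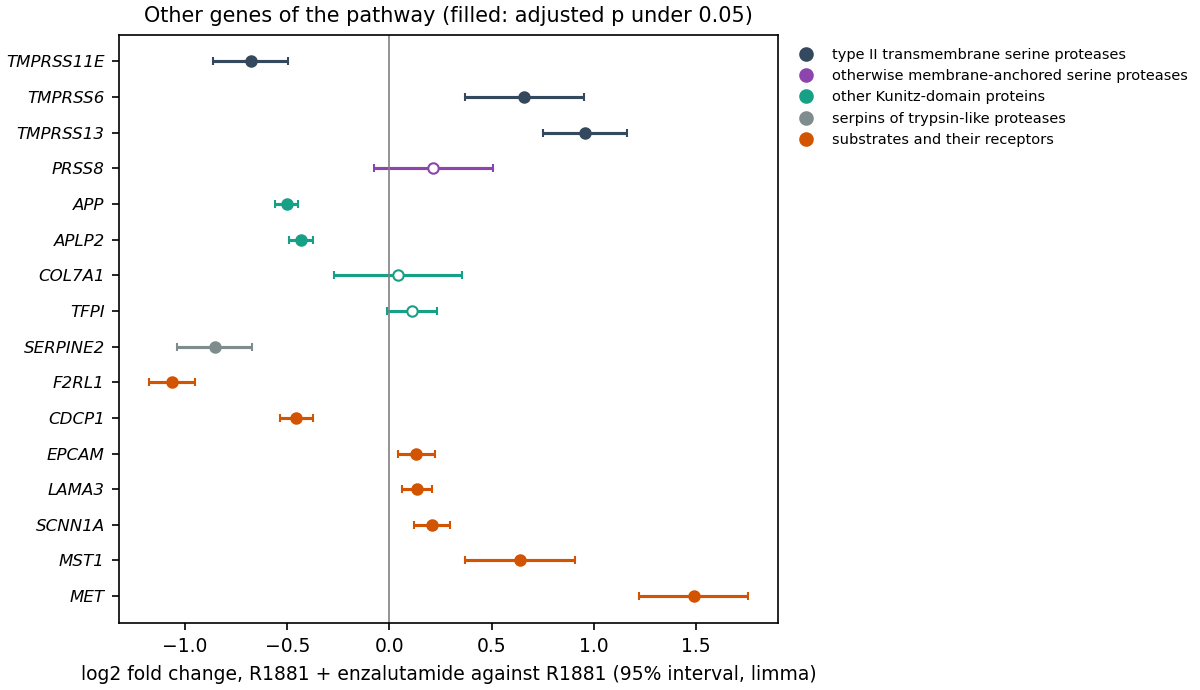
Log2 fold change of R1881 + enzalutamide against R1881 (x axis) with its 95% interval from limma for the tested genes of the related lists that are named in the text (rows, coloured by list), filled where the adjusted p was under 0.05. F2RL1 at -1.06 and MET at 1.49 are the ends of the range, and PRSS8, TFPI and COL7A1 are not filled.

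The genes whose values followed those of each protease or inhibitor most closely were sought among 12163 genes with a mean of at least 5 CPM, by Pearson correlation over the 15 libraries. This is a description of likeness in libraries that share treatment, scaling and GC content. For TMPRSS2 they were SORD (r = 0.999), its near-identical copy SORD2P, whose reads may not be separable from those of SORD, and CREB3L4. They were VWA1, GUK1 and OAZ1 for HPN (r of at least 0.984), FARSA, NCLN and PLXNB2 for ST14 (r of at least 0.989), MAN1B1, RPL8 and APLP1 for SPINT1 (r of at least 0.958), and STMN3, DUSP8 and EEF2 for SPINT2 (r of at least 0.957). The genes most like HPN had transcripts of 54.0% to 66.8% GC, and those most like ST14 of 61.3% to 65.1% GC. For SPINT1 they had 59.5% to 63.6% GC, and for SPINT2 59.9% to 66.3% GC.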

How the data were processed

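Polyadenylated RNA was sequenced in single-end mode. Per the methods and the labels, the authors mapped reads with STAR to GRCh38, counted them per gene with featureCounts, and deposited for each gene a scaled signal, named CPM in the methods. No source used here gives the annotation, the strand setting, the gene filter or the scaling. The deposited columns sum to between 1053406 and 1078567 in the R1881 libraries. In the R1881 + enzalutamide libraries they sum to between 985580 and 1008992, so the deposited scale differs with the treatment. With the library totals set equal the log2 fold change of SPINT2 was 0.23 in place of 0.13. Divided by what a single read was worth in its library, 100% of the values were whole to within 0.01, so read counts could be recovered.

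Differences were tested with limma 3.58.1 in R 4.3.3 on log2(CPM + 0.5) for genes with a mean of at least 0.5 CPM, with a mean-variance trend, a single term for treatment, p-values adjusted by Benjamini-Hochberg and a threshold of 0.05. Exact permutation tests were two-sided over all regroupings of the 15 libraries. edgeR 4.0.16 and DESeq2 1.42.0 on the recovered reads were alternatives, as were other pseudocounts, filters and scalings, each R1881 series alone, a replicate block and each library left out. Removal of the trend on GC content (spline with 5 degrees of freedom, 85.1% of tested genes with a matched transcript of GENCODE v44) and the fit without libraries 73, 74 and 83 were added after seeing the data. The limma fit and the removal of the GC trend were each tried on simulated data. The data for the limma fit held no GC trend and no difference between series, and the other fits were not tried in this way.

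The 5 genes and all lists were chosen with earlier results of these data known. Named are these genes, list genes, annotated genes within 250 kb, and the 3 genes most alike in pattern; the rule asked for a change of at least 2-fold in list genes, and the other list genes were named after their values were seen. Lengths and GC content are those of canonical transcripts. Some genes of the lists and neighbourhoods are counted but not reported by name here. The methods call the libraries biological replicates. The labels name no separate cultures, so p-values measure only the spread between these libraries. Counting error limits genes with few reads.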

Additional observations from a re-analysis of the deposited data

Results flagged for a closer look

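ST14 in library 73 (R1881 replicate 6) was measured at 129 CPM, and the next of the 10 R1881 libraries at 100.3 CPM. The gap over the range of the group was 0.483, above the critical value of 0.466. Over 22 groups of 5 or 10 libraries examined this was the single case, where chance gives about 1.1. Library 73 also had the steepest slope on GC content, 0.220 log2 units per 10 percentage points, and with the trend removed the largest gap over the range was 0.396. Without this library the log2 fold change of ST14 was -0.42 (adjusted p = 8.89e-05 from limma).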

How the results depend on the processing

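TMPRSS2 and ST14 kept their direction and their call under each of the alternatives run, from -3.64 to -3.47 and from -0.60 to -0.36 on the log2 scale. SPINT2 ranged from 0.11 to 0.23, and its call was lost in 1 setting, against R1881 libraries 71 to 75 alone (0.11, adjusted p = 0.0653 from limma). HPN stayed without a call and changed sign against libraries 51 to 55 alone (0.037). SPINT1 changed sign with library totals set equal (0.088), TMM factors (0.038), median-ratio factors (0.0045), edgeR (0.035), DESeq2 (0.0050), libraries 51 to 55 alone (0.061), without libraries 73, 74 and 83 (0.0043), with the GC trend removed (0.075, now passing the test) and with the GC trend removed and the replicate block (0.050, adjusted p = 0.124 from limma). With each library left out in turn SPINT1 ran from -0.044 to 0.020. The difference between the R1881 series changed sign with the GC trend removed for SPINT1 (-0.011) and SPINT2 (-0.0076). Of the pathway list genes, 4 in place of 8 were higher with a filter at a mean of 5 CPM, which tests fewer genes. The replicate numbers of the titles did not pair the libraries (correlations of deviations from -0.07 to 0.07 over 5 pairs, with 1 of 5 best matched to its own number). The replicate block gave -3.57 for TMPRSS2, -0.17 for HPN, -0.50 for ST14, -0.05 for SPINT1 and 0.13 for SPINT2, with the same calls, and 10048 genes called in place of 10660. Depth was not limiting for the 5 genes, and it limits MET and the other list genes near 1 CPM.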

Other observations

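Genes within 250 kb of each of the 5 genes were examined. Of 4 tested neighbours of TMPRSS2, MX1, an interferon-induced GTPase gene, was higher with enzalutamide (log2 fold change 0.66) and RIPK4 lower (-0.44), while BACE2 (0.19) and FAM3B (-0.03), each below 2 CPM, did not pass the test. No neighbour of TMPRSS2 had a fall of at least 2-fold. Next to ST14, 5 of 6 tested neighbours were lower, where 32.7% of all genes tested were, and their log2 fold changes ran from -0.43 for APLP2 to -0.27 for PRDM10, with ZBTB44, 16.3 kb away, at -0.28. Around HPN, FXYD3 was lower (-0.93), 3 genes were higher and 4 were not called. Near SPINT1, RHOV, 14.0 kb away, was higher (0.48), and near SPINT2 the proteasome subunit gene PSMD8 was lower, from 358 to 182 CPM. These calls rest on limma with the adjusted p threshold of 0.05.

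Of 5 ETS genes known from fusions with TMPRSS2 in prostate cancer, only ETV1 had a row. Fusion transcripts were not examined, so no fusion is implied for these cells. ETV1 fell from 253 ± 16.1 CPM over the R1881 libraries (SD, n = 10) to 187 ± 7.15 CPM (SD, n = 5), a log2 fold change of -0.43 (adjusted p = 2.20e-08 from limma), with ranges that lay apart. The keratin genes KRT8 and KRT18 fell by 2.18 and 2.05 on the log2 scale.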
